A study of Mus musculus with 4 samples.

Results

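The endothelial cells of the embryonic mouse knee region were taken as the cells with at least 1 UMI (unique molecular identifier, a tag for a single captured RNA molecule) in at least 3 of 7 endothelial genes. These genes were Cdh5, Pecam1, Emcn, Kdr, Cldn5, Esam and Plvap. In 4 single-cell RNA libraries this rule chose 239 of 44320 kept cells, or 0.539%, where a kept cell had 200 to 6000 detected genes and at most 10% of its UMIs from mitochondrial genes. The choice rests on measured values of the 7 genes, so their levels describe the cells and were not tested.

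Each library held cells of the presumptive knee joint region of the mouse hindlimb, freed with collagenase and run on the 10x Genomics 3' v3.1 system, which counts molecules per gene near their 3' end. The deletions target the genes of the glucose transporters Glut1 (Slc2a1) and Glut3 (Slc2a3) through Prx1Cre, a recombinase driver of the early limb mesenchyme that does not act in endothelium. Endothelial cells of the mutant limbs therefore sat beside deleted mesenchyme without a deletion of their own, as far as the driver's known pattern goes. The E13.5 control and the E14.5 control carried no cre. The 2 mutant libraries, both at E14.5, were G1KO (Prx1cre;Glut1f/f;Glut3f/+), in which 1 Glut3 allele was floxed, and DCKO (Prx1cre;Glut1f/f;Glut3f/f), in which both genes were floxed on both alleles. The study gives a minimum of embryos per genotype for each experiment, without a number for each library. Each condition had 1 library, so no difference between conditions could be tested. Sets of 4 values are given in the order E13.5 control, E14.5 control, G1KO and DCKO.

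Endothelial cells line blood and lymphatic vessels and meet each other at junctions built on VE-cadherin, the product of Cdh5. In the embryo, VEGF receptors drive their growth and sprouting, and Notch signalling together with SoxF factors sets arterial fate while Nr2f2 supports venous fate. Cartilage templates carry no vessels at these ages, so vessels of a knee region lie in the tissue around the templates.

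The libraries held 100344565, 84188147, 97110697 and 91574038 UMIs in 12769, 9707, 11690 and 11602 barcodes. Endothelial cells numbered 63 of 12446 kept cells in the E13.5 control, or 0.506% (exact Clopper-Pearson 95% interval 0.389 to 0.647). In the E14.5 control they were 34 of 9305, or 0.365% (0.253 to 0.510). The share was 0.577% in G1KO (65 of 11264, 0.446 to 0.735) and 0.681% in DCKO (77 of 11305, 0.538 to 0.851). The E14.5 control thus had the fewest endothelial cells and the lowest share, and the intervals cover the sampling of cells within a library, not differences between embryos. How many vessels the dissection left on each knee region was not measured, so shares were not read as vessel density. Endothelial cells had a median of 8596, 6022, 7951 and 6593 UMIs and 2892, 2310.5, 2851 and 2358 genes, against a median of 6173, 7287, 6750 and 6376 UMIs in all other kept cells. Individual endothelial cells ran from 528 to 41537 UMIs. Their UMIs summed to 634679, 261364, 650161 and 702094, so the E14.5 control rests on the smallest sum.

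Of the 239 cells, 160 had UMIs of all 7 genes and 210 (87.9%) had at least 5. Just inside the threshold, 20 cells had exactly 3 genes, with a median of 960 UMIs per cell, and just outside it 105 cells had 2, with a median of 7106. Cells just inside were shallow in the E13.5 control, the E14.5 control and DCKO (medians of 880, 781.5 and 893.5 UMIs), but not in G1KO, where 3 such cells had a median of 6460. When each cell was thinned to 2000 UMIs, which left out 7, 8, 2 and 8 shallower endothelial cells, the rule chose 0.415%, 0.264%, 0.544% and 0.632% of cells, in the same order of libraries. Likely doublets were kept, and leaving out endothelial cells with UMIs in at least 3 of 7 skeletal muscle, macrophage, megakaryocyte, glial, epidermal or mural genes left 61, 33, 58 and 74. Cells were not left out for at least 3 chondrocyte genes (7, 3, 11 and 8 cells), fibroblast genes (8, 2, 8 and 6) or erythroid genes (3, 2, 2 and 2), some of which may be doublets. Pairs of libraries shared 25 to 40 barcodes, and no shared barcode was an endothelial cell in both.

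**Figure D1:**
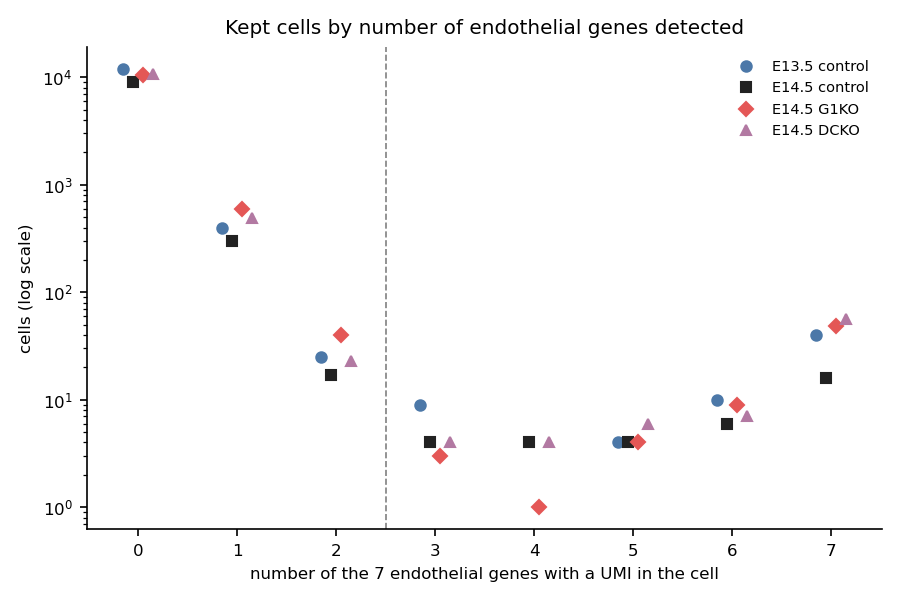
Number of kept cells (log scale) by how many of the 7 endothelial genes had a UMI, in each of the 4 libraries, with a dashed line between 2 and 3 genes. Summed over libraries, 42186 cells had none of the genes, 105 had 2 and 160 had all 7.

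Levels are given as CPM, the UMIs of a gene summed over the cells of a group per 1000000 summed UMIs of that group, and bracketed ranges after a fold are exact 95% intervals for counting error. Cdh5 (ENSMUSG00000031871, chromosome 8, 104101625 to 104144511, GRCm38 with GENCODE M21) measured 673, 907, 938 and 994 CPM in endothelial cells and 0.274, 0.101, 0.195 and 0.126 CPM in all other kept cells. Plvap, which forms the diaphragms of fenestrae and caveolae, measured 1152, 945, 795 and 1179 CPM, and Cldn5, a tight junction claudin, 731, 513, 709 and 769 CPM. Kdr, the main VEGF receptor, measured 378, 402, 472 and 436 CPM, and Pecam1, a junctional adhesion molecule, 427, 440.0, 551 and 598 CPM. Emcn, a sialomucin of capillaries and veins, measured 712, 612, 611 and 721 CPM in endothelial cells and 1.34, 3.93, 9.85 and 4.04 CPM in other cells, and Esam, a tight junction adhesion molecule, 549.9, 605, 559.9 and 842 CPM. Each of the 7 genes was at least 61.9-fold higher in endothelial cells of each library, which follows from the rule. Summed over the 7 genes the level was 4623, 4423, 4636 and 5539 CPM, against 5.67, 6.97, 14.2 and 8.58 CPM in other cells.

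Against all other cells, 872 of 14789 measured genes were at least 2-fold higher in endothelial cells of each of the 4 libraries (5.90%), and 2119 were at least 2-fold lower in each (14.3%). A gene counted as measured with at least 20 UMIs over the 2 sums compared, and list medians are over the genes measured in that comparison, which can be more than those measured in all comparisons of a count. With sums of 0 UMIs set to the floor of 3 counts, 557 of the 2119 were still at least 2-fold lower and all 872 still higher, so most of the lower genes depend on a sum of 0 in at least 1 library. The median log2 ratio over all genes was -0.39, -0.61, -0.26 and -0.21, or 0.11, 0.44, 0.26 and 0.33 at that floor, which bounds a gene at 0 in endothelial cells from above, so the sign depends on the genes at 0. Scaling by TMM (trimmed mean of M values) would move the first of these by -0.18 in DCKO. Beyond the 7 genes, 18 of 21 measured vascular receptors were at least 2-fold higher in all 4 libraries, with a median log2 ratio of 5.76, 5.28, 5.46 and 6.08. Flt1, a VEGF receptor that also traps the ligand, measured 309, 314, 481 and 480.0 CPM in endothelial cells and 0.417, 0.582, 0.586 and 0.446 CPM in other cells. Tie1, an orphan receptor of the angiopoietin system, measured 162, 187, 219.9 and 241 CPM, and its partner Tek, the angiopoietin receptor, 37.8, 72.7, 112 and 85.5 CPM. Eng, a co-receptor for TGF-beta and BMP9, measured 271, 287, 351 and 412 CPM against 2.35, 7.38, 7.19 and 4.80 CPM elsewhere. These receptors were high in endothelial cells of each of the 4 libraries and low in other cells.

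Among endothelial transcription factors, 15 of 22 were past 2-fold in all 4 libraries, with median log2 ratios of 3.17, 2.80, 3.23 and 3.19 (3.82 in G1KO with a gene at 0 at the floor). The ETS factor Ets1 measured 274, 222, 248 and 268 CPM in endothelial cells and 16.7, 12.6, 13.2 and 11.2 CPM in other cells, and the SoxF factor Sox18 147, 153, 123 and 192 CPM against 0.296, 0.455, 0.271 and 0.469 CPM. Erg, the ETS factor that maintains endothelial identity, was less separated, at 58.3, 53.6, 78.4 and 68.4 CPM against 16.1, 21.2, 15.2 and 16.1 CPM, since other cells of the knee region also carried it. Klf2, the flow-responsive factor, measured 555, 314, 503 and 464 CPM in endothelial cells and 264, 783, 627 and 821 CPM in other cells, above them in the E13.5 control and below them in the other 3 libraries.

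Of the surface and junction proteins, 16 of 18 were at least 2-fold higher in all 4 libraries (median log2 4.57, 3.85, 4.53 and 5.09). Icam2, which endothelium carries without inflammation, measured 562, 436, 503 and 765 CPM, and Cd34, a sialomucin of young endothelium, 444, 478, 484 and 507 CPM. Vcam1, an adhesion molecule of activated endothelium, was at least 2-fold lower in all 4, at 14.2, 3.83, 4.61 and 7.12 CPM against 42.6, 28.1, 24.6 and 31.8 CPM in other cells.

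Outside the lists, the 15 genes with the highest lowest ratio over the 4 libraries, at 50 CPM or more, were Myct1, Gimap4, Prnd, Fam167b, Gimap1, C130074G19Rik, Tmem255a, Mfng, Rasgrp3, Gimap6, Ctla2a, Grrp1, Sncg, Vamp5 and Arap3. Their lowest folds over other cells were 54.3, 86.0, 81.7 and 107. Ctla2a, a cysteine protease inhibitor, measured 432, 398, 455 and 559.8 CPM in endothelial cells and 0.515, 0.974, 3.72 and 3.78 CPM in other cells, and Myct1, a membrane protein, 165, 172, 181 and 234 CPM. The set holds 3 GTPases of immunity-associated proteins (Gimap1, Gimap4 and Gimap6) and Mfng, a glycosyltransferase that modifies Notch receptors. Gimap4 measured 97.7, 84.2, 109 and 103 CPM and Mfng 176, 161, 137 and 209 CPM, beside 0.0439, 0.0759, 0.0760 and 0.103 CPM and 0.581, 0.240, 0.553 and 0.194 CPM in other cells.

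Genes of the vessel wall formed the next group. Of the basement membrane genes, 13 of 16 were at least 2-fold higher in all 4 libraries (median log2 3.05, 2.65, 2.44 and 3.02). Col4a1, a chain of the main network collagen of basement membranes, measured 791, 1071, 1174 and 1322 CPM in endothelial cells and 39.9, 52.2, 50.5 and 33.0 CPM in other cells. Sparc, a collagen-binding matricellular protein, reached 2795, 2640, 3041 and 3999 CPM and Egfl7, a matrix protein secreted by endothelium, 985, 1136, 1077 and 1390.1 CPM. Col4a5, a type IV chain of specialised membranes, had 1, 0, 0 and 0 UMIs in endothelial cells, too few for a call at the floor. Of the caveolae genes, which shape membrane pits rich in endothelium, 7 of 8 were past 2-fold, with medians of 3.61, 3.51, 3.57 and 4.25. Of the sprouting tip cell genes, 14 of 16 were past 2-fold, with medians of 3.63, 4.38, 4.33 and 5.18. Among them Kcne3, a potassium channel subunit, measured 263, 302, 169 and 392 CPM and Esm1, a proteoglycan of tip cells, 64.6, 26.8, 35.4 and 115 CPM. Esm1 was highest in DCKO and lowest in the E14.5 control, where 2 cells carried its 7 UMIs.

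Of the endothelial ligands, 9 of 17 were at least 2-fold higher in all 4 libraries (median log2 2.26, 1.61, 2.93 and 3.45, with the E14.5 control at 2.91 when genes at 0 are set to the floor). Pdgfb, which recruits mural cells, measured 102, 172, 188 and 258 CPM against 1.51, 1.86, 1.87 and 1.22 CPM in other cells, and Kitl, the ligand of Kit, 178, 176, 161 and 174 CPM against 6.39, 12.8, 10.1 and 16.2 CPM. Among the TGF-beta and BMP response genes, Eng, Acvrl1 and Bambi were higher in all 4 libraries and Id2 was lower, with list medians of 0.56, -0.11, 1.18 and 1.29. Of the lipid and barrier transport genes, 4 of 12 were higher (Gpihbp1, Fabp4, Abcg2 and Slco2a1) and 3 lower (Lpl, Mfsd2a and Tfrc), with medians of -0.19, 0.42, 1.97 and 1.84, of which the first turns to 1.09 with genes at 0 at the floor. Gpihbp1, which carries lipoprotein lipase to the lumen of capillaries, measured 153, 260.2, 279.9 and 376 CPM in endothelial cells and 0.0439, 0.152, 0.119 and 0.194 CPM in other cells. The lipase gene itself, Lpl, went the other way, with 3.15, 3.83, 1.54 and 4.27 CPM in endothelial cells and 20.9, 22.7, 22.8 and 17.5 CPM in other cells. Mfsd2a, the lipid transporter of the blood-brain barrier, had 2, 1, 0 and 0 UMIs and is not lower in all 4 libraries at the floor.

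Of the metabolic lists, glycolysis had medians below 0, toward the other cells, while the sign for glucose transporters depends on genes at 0. None of the 7 measured glucose transporters was past 2-fold in the same direction in all 4 libraries, and the medians of the 9, 8, 8 and 8 measured in each library were -0.80, -0.46, -1.04 and -1.60, or 0.37, 1.06, 0.19 and 0.66 with the 3 genes at 0 in each library set to the floor. For glycolysis, 0 of 17 genes were higher and 3 lower (Hk2, Tpi1 and Slc16a3), beside 5.90% and 14.3% of all genes. Medians were -0.61, -0.79, -1.08 and -0.65, beside -0.39, -0.61, -0.26 and -0.21 over all genes, which are above 0 at the floor. Tpi1, triose phosphate isomerase, measured 217, 256, 238 and 282 CPM in endothelial cells and 515, 668, 638 and 675 CPM in other cells. Gapdh, the most abundant gene of the list, measured 1555, 1549.6, 1443 and 1846 CPM against 1826, 1809, 2084 and 2305 CPM. Hk2, the inducible hexokinase, measured 12.6, 3.83, 30.8 and 24.2 CPM against 35.8, 105, 174 and 135 CPM. Each of these 3 enzymes was lower in endothelial cells of each library, with the widest gap for Hk2. Pfkp went the other way in both controls, at least 2-fold higher in endothelial cells, but was not 2-fold higher in either mutant.

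Of the 18 HIF targets, 2 were higher (Adm and Ndrg1) and 5 lower (Vegfa, Bnip3, P4ha1, P4ha2 and Higd1a) in all 4 libraries, with medians of -0.26, -1.14, -0.80 and -0.37 (E14.5 control -0.52 at the floor). Over all genes 5.90% were higher and 14.3% lower in all 4 libraries. Vegfa, the ligand of Kdr and Flt1, measured 6.30, 15.3, 23.1 and 12.8 CPM in endothelial cells and 51.5, 66.0, 84.6 and 91.4 CPM in other cells. The level of Vegfa was thus lower in endothelial cells than in other cells, and that of its receptor Flt1 was higher. Kdr is a gene of the rule that chose the cells, so its high level follows from the rule. Of the 15 ATF4 targets, which respond to amino acid shortage and stress, 1 was higher (Atf3) and 2 lower (Phgdh and Mthfd2), near the shares over all genes. Medians were -0.48, -0.71, -1.25 and -2.68, or 0.14, -0.41, -1.25 and -1.91 at the floor. S phase genes (15 measured) and G2M genes (16 measured) had none past 2-fold in the same direction in all 4 libraries. Their medians were -0.35, -0.34, -0.42 and -0.74 for S phase and -0.14, -0.24, -0.74 and -0.07 for G2M. Of 15 immediate-early genes, which respond within minutes to stimuli and to tissue dissociation, Atf3 and Dusp1 were higher in all 4 libraries. The list's medians were 1.07, -0.81, 0.01 and 0.14, of which the positive value in G1KO turns to -0.08 and that in DCKO to -0.04 with TMM, and both are below 0 with a mean of CPM over cells.

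Genes of other lineages were read from lists of 7 genes each. For macrophages, C1qa, C1qb, C1qc, Tyrobp and Cx3cr1 had 0 UMIs in endothelial cells of all 4 libraries, and the list summed to 11.03, 19.1, 12.3 and 35.6 CPM with Fcer1g as its most abundant gene. In the macrophages of the same libraries (cells with at least 3 of the 7 genes), which numbered 31, 60, 73 and 64, it summed to 7381, 7269, 6303 and 7118 CPM. Of 7 blood lineage genes measured, Kit and Laptm5 were higher in all 4 libraries and Ptprc, the pan-leukocyte antigen, had 0 UMIs in endothelial cells. The list's medians were 0.28, -2.81, -0.80 and 0.54, or 2.91, 2.40, 1.85 and 1.82 with genes at 0 at the floor, so the sign depends on the zeros. Chondrocyte genes summed to 285, 957, 794 and 363 CPM in endothelial cells, or 11.8, 10.9, 9.96 and 4.19% of their level in other cells, and Col2a1 led in each library. Fibroblast genes summed to 224, 153, 219.9 and 191 CPM, led by Col3a1, against 1321, 1291, 1248 and 1056 CPM in other cells, with Dcn and Twist2 at 0 UMIs in the E14.5 control. Both lists were detected in endothelial cells far below their level in other cells, and whether free RNA or doublets gave these UMIs was not tested.

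Muscle genes summed to 17.3, 3.83, 109 and 7.12 CPM and were led by Tnnt1. In G1KO, 1 endothelial cell held 15 of 16 Myod1 and 12 of 12 Myog UMIs. Mural genes summed to 42.5, 84.2, 140.0 and 75.5 CPM, with at least 3 of the 7 genes in 1, 1, 6 and 2 endothelial cells and Higd1b at 0, and the most abundant gene was Pdgfrb, Abcc9, Rgs5 and Abcc9. Megakaryocyte genes summed to 99.3, 7.65, 16.9 and 12.8 CPM. Most of the E13.5 value came from 1 cell with all 7 endothelial genes, which held 21 of 22 Itga2b, 19 of 19 Treml1 and 9 of 9 Gp9 UMIs. Glial genes summed to 3.15, 7.65, 6.15 and 0 CPM and epidermal genes to 9.45, 0, 7.69 and 1.42 CPM. Erythroid genes summed to 18253, 30238, 15550 and 1008 CPM and took 1.82, 3.02, 1.55 and 0.101% of endothelial UMIs as hemoglobin, led by Hbb-y, Hbb-bs, Hbb-bs and Hbb-y. In the 4 libraries 1, 2, 1 and 1 endothelial cells held 100 or more hemoglobin UMIs, and the share of hemoglobin in these cells is not given.

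Arterial genes were found in part of the endothelial cells. Of the measured arterial genes, 8 of 11 were at least 2-fold above other cells in all 4 libraries, with medians of 3.41, 3.79, 5.07 and 5.58, and of Notch pathway genes 7 of 12, with medians of 2.90, 3.49, 3.45 and 3.93. Gja4 (ENSMUSG00000050234, chromosome 4, 127311421 to 127314039), a gap junction connexin of arteries, had a UMI in 54.0, 26.5, 56.9 and 54.5% of endothelial cells, against 0.186, 0.324, 0.420 and 0.267% of other cells. Thinned to 2000 UMIs per cell, the endothelial shares were 32.2, 18.3, 35.2 and 38.3%. The E14.5 control was lowest both ways (exact interval before thinning 12.9 to 44.4%). Gja5 (ENSMUSG00000057123, chromosome 3, 96904693 to 97077416), the connexin of larger arteries, had a UMI in 9, 0, 13 and 10 endothelial cells, or 14.3, 0, 20 and 13.0%. Its 0 of 34 cells in the E14.5 control allows a share of cells with a UMI of up to 8.82% (3 of 34), or 10.3% by the exact limit, and does not limit the share of cells that express Gja5. The exact intervals elsewhere were 6.75 to 25.4% (E13.5 control), 11.1 to 31.8% (G1KO) and 6.41 to 22.6% (DCKO). Other cells had a Gja5 UMI in 0.218, 0.0431, 0.0893 and 0.0267%, and thinned endothelial shares were 8.87, 0, 12.8 and 7.28%.

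Sox17, a SoxF factor of arterial fate, had a UMI in 60.3, 29.4, 63.1 and 59.7% of endothelial cells, and 25.6, 18.2, 26.3 and 25.7% after thinning. Other cells had Sox17 in 0.0485, 0.0539, 0.0357 and 0.0534%. The gap between the E14.5 control and the other libraries was thus narrower among thinned cells, which also leave out the shallower cells. Dll4, the Notch ligand of arteries and tip cells, was found in 41.3, 38.2, 38.5 and 42.9%, an even spread over libraries, with 0.113, 0.0647, 0.134 and 0.143% in other cells. Efnb2, the arterial ephrin, was found in 50.8, 44.1, 61.5 and 58.4% of endothelial cells, but also in 19.5, 18.1, 19.1 and 15.5% of other cells. Venous genes were found in part of the cells as well. Of 6 measured venous genes, Aplnr and Vwf were past 2-fold in all 4 libraries, with medians of 0.72, 1.86, 1.55 and 2.14. Aplnr, the apelin receptor of veins and sprouting capillaries, had a UMI in 50.8, 52.9, 55.4 and 48.1% (thinned 21.6, 29.9, 27.0 and 20.9%), against at most 0.0625% in other cells. Nr2f2, the venous nuclear receptor, had a UMI in 22.2, 23.5, 29.2 and 18.2% and Ephb4, the receptor of Efnb2, in 42.9, 38.2, 32.3 and 40.3%, with 11.2, 4.67, 6.30 and 3.12% and 19.8, 19.8, 18.0 and 15.9% in other cells.

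Prox1 and Lyve1 of the lymphatic list were rare. Prox1, the master factor of lymphatic fate, had UMIs in 3, 1, 3 and 3 endothelial cells, a share of 4.76, 2.94, 4.62 and 3.90% beside 1.98, 1.84, 1.72 and 1.09% of other cells, and Lyve1, a lymphatic hyaluronan receptor, in 0, 0, 0 and 1. Of 5 measured lymphatic genes, Flt4, the VEGF-C receptor that young blood vessels also carry, was higher in all 4 libraries and Pdpn lower. A Flt4 UMI was found in 39.7, 29.4, 35.4 and 41.6% of endothelial cells. The list's medians were 2.16, 0.13, -1.33 and 0.83, or 2.16, 1.18, 1.26 and 1.44 with genes at 0 set to the bound that 3 counts give. In the E13.5 control, 1 cell of 16808 UMIs held 30 of 30 UMIs of Ccl21a, a lymphatic chemokine, and 13 of 15 of Prox1. That cell also held 29 Cldn5 and 9 Cdh5 UMIs, but none of Esam or Plvap. It was singled out after its values were seen.

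**Figure D2:**
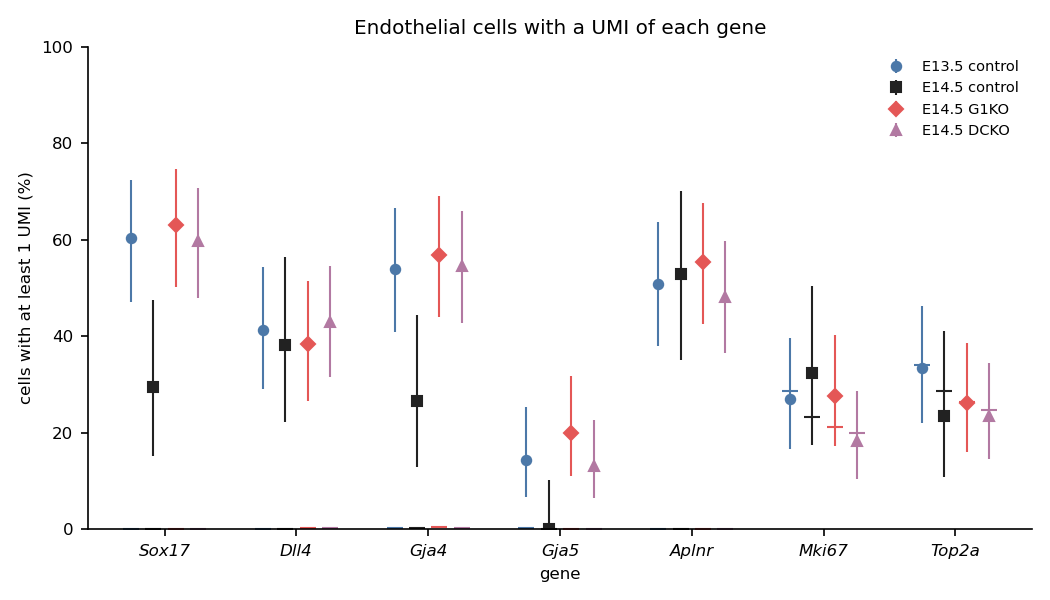
Percent of endothelial cells with a UMI of Sox17, Dll4, Gja4, Gja5, Aplnr, Mki67 and Top2a in each library, with exact 95% intervals as bars and short dashes for all other cells of the library. Gja5 was found in 0 of 34 cells of the E14.5 control and in 13.0 to 20.0% of cells elsewhere.

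Arterial and venous genes overlapped in part of the cells. Of the 239 cells, 75 had Gja4 without Aplnr, 76 Aplnr without Gja4, 47 both and 41 neither, so 47 of 122 cells with Gja4 also had Aplnr. Each of the 32 cells with Gja5 also had Gja4, and 3 had Aplnr. After these counts were seen, the 29 cells with Gja5 and without Aplnr (9, 13 and 7 in the E13.5 control, G1KO and DCKO) were summed and set against the 102 cells with Aplnr of the same libraries. Gja5 cells were the shallower group, with medians of 5122, 6555 and 4223 UMIs against 10834.5, 10449.5 and 9180, and the 3 cells with both genes were left out. Of 7018 measured genes, 842 were at least 2-fold higher in Gja5 cells (12.0%) and 715 at least 2-fold lower (10.2%), of which 842 and 658 held with sums of 0 at the floor. Without the DCKO library the count of higher genes was 541.

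All 12 measured arterial genes other than Gja5 were at least 2-fold higher in Gja5 cells, with a median log2 ratio of 3.37 beside 0.06 over all genes. Gja4 measured 1921 CPM in Gja5 cells and 124 CPM in Aplnr cells, 15.5-fold (12.8 to 18.8) higher. Mecom, a zinc finger factor of arterial and stem cell programs, measured 604 CPM in Gja5 cells and 41.7 CPM in Aplnr cells. Efnb2 measured 483 CPM in Gja5 cells and 93.1 CPM in Aplnr cells, 5.18-fold (3.93 to 6.82) higher. Arterial genes were thus higher together in the summed cells, though not each in each library. Cxcl12 in the E13.5 control was at 0 CPM in Gja5 cells and 32.1 CPM in Aplnr cells, and Sox17 in DCKO at 219 and 158 CPM, short of 2-fold. Jag1, a Notch ligand, was 32.5-fold (13.48 to 94.7) higher, Hey1, a Notch target, 8.77-fold (5.58 to 13.9) and Sema3g, a secreted semaphorin, 22.1-fold (11.8 to 44.3). Of the Notch pathway, 6 of 10 genes were higher and 0 lower (Notch1, Notch4, Dll4, Jag1, Jag2 and Hey1), with a median of 1.55.

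Vwf (ENSMUSG00000001930, chromosome 6, 125546774 to 125686679), the clotting and adhesion protein stored by endothelium, is on the venous list but measured 623 CPM in Gja5 cells and 3.27 CPM in Aplnr cells, 191-fold (72.7 to 710.0) higher. It was at 599.8, 620.0 and 658 CPM in Gja5 cells of the E13.5 control, G1KO and DCKO and at 0, 5.06 and 4.72 CPM in Aplnr cells. Of the other venous genes, Nr2f2 and Nrp2 went the other way, with Nr2f2 at 0 UMIs in Gja5 cells against 62 in Aplnr cells, at least 3.60-fold lower, and Nrp2, a VEGF-C co-receptor, 14.4-fold (3.92 to 119.8) lower. Ephb4 was not lower, at 79.6 CPM in Gja5 cells and 51.5 CPM in Aplnr cells, 1.55-fold (0.849 to 2.68) higher. Gkn3, a gastrokine family gene, measured 169 CPM in Gja5 cells and 0 CPM in Aplnr cells, at least 68.8-fold higher against a floor of 3 counts. Bmx, a kinase of arterial endothelium, was at least 45.9-fold higher, Dkk2, a secreted Wnt modulator, 51.6-fold (23.6 to 134) and Tmem100, a BMP-induced membrane protein, 65.9-fold (16.3 to 577). Col18a1, the source of endostatin, measured 1879 CPM in Gja5 cells and 409 CPM in Aplnr cells, 4.59-fold (4.01 to 5.24) higher. It was 1 of 3 higher among 14 basement membrane genes, with Lamb2 and Mmrn2, while 0 were lower.

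Among the genes lower in Gja5 cells were those of dividing cells. With genes at 0 set to the floor, 15 of 16 G2M genes were at least 2-fold lower, with a median of -1.98, and 6 of 14 S phase genes were lower and 0 higher, with a median of -0.83. With the prior count these medians were -2.35 and -0.95, and Bub1 (at least 1.92-fold lower) and Cdc45 (at least 1.16-fold) were also called. Some of the calls rest on few UMIs, such as Kif11 with 2 in Gja5 cells, 2.62-fold (0.664 to 22.6) lower. G2M genes were thus lower in the summed cells, though not each in each library. In DCKO Birc5 was at 285 CPM in Gja5 cells and 250 CPM in Aplnr cells, Kif11 at 43.9 and 26.0 CPM and Tpx2 at 110 and 109 CPM. Ccnb1, Ccnb2, Ccna2, Cenpf and Ube2c were lower there but short of 2-fold. Mki67, a proliferation antigen, was 10.4-fold (2.81 to 86.7) lower and Top2a, the mitotic topoisomerase, 8.41-fold (3.23 to 31.2) lower. Kcne3 had 0 UMIs in Gja5 cells and 446 in Aplnr cells, at least 25.9-fold lower. Emcn was 3.48-fold (2.62 to 4.73) lower and Gng11, a G protein gamma subunit, 5.33-fold (4.25 to 6.78) lower. Of 8 lipid and barrier genes, 3 were lower (Gpihbp1, Fabp4 and Slco2a1, the last from 1 UMI), while Cd36 had 0 UMIs against 22, at least 1.28-fold lower, and Aqp1, a water channel, was 21.9-fold (12.4 to 40.6) higher. Fabp4, the fatty acid binding protein of capillaries, was 6.58-fold (2.52 to 24.5) lower. For glycolysis the median was -0.46, with Hk2 higher and Slc16a3, a lactate exporter, lower among 14 genes.

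**Figure D3:**
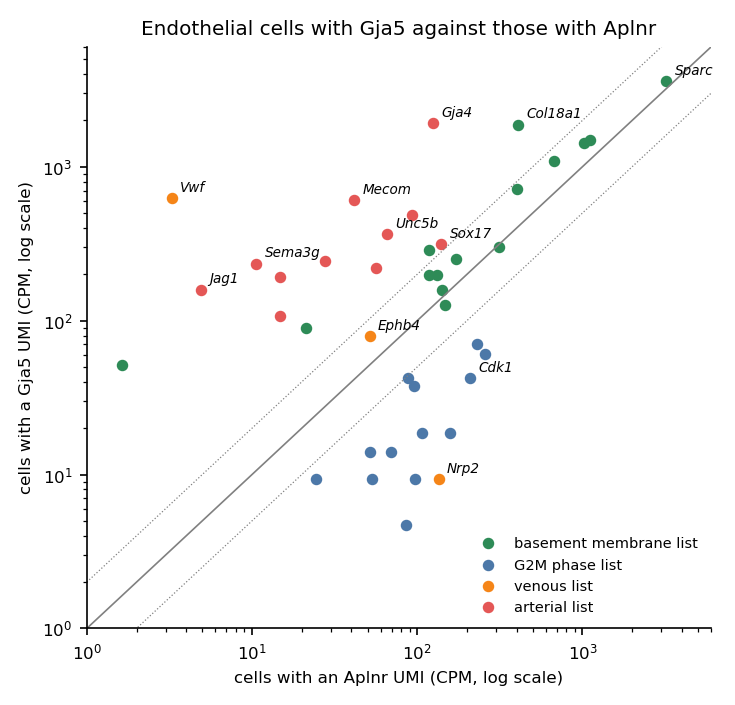
CPM of list genes in the 29 endothelial cells with Gja5 against the 102 with Aplnr (both axes log scale), summed over 3 libraries, with a solid line at equal levels, dotted lines at 2-fold and points for the 11 arterial, 3 venous, 15 basement membrane and 13 G2M list genes with UMIs in both groups. G2M genes lie below the lower 2-fold line and arterial genes above the upper one.

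Cell cycle genes were read by cell as well. Mki67 had a UMI in 27.0, 32.4, 27.7 and 18.2% of endothelial cells and in 28.7, 23.3, 21.2 and 19.9% of other cells. Mki67 or Top2a was found in 80 of 239 endothelial cells, or 36.5, 38.2, 36.9 and 26.0% by library. The values were near each other in the first 3 and lower in DCKO (exact interval 16.6 to 37.2%), though the intervals overlap. The summed level of the G2M list was instead lowest in G1KO, at 2148, 1683, 943 and 1282 CPM. By vessel gene, 37 of 76 cells with Aplnr and no Gja4 had 1 of the 2 cycle genes, against 12 of 75 cells with Gja4 and no Aplnr and 2 of 32 cells with Gja5. Cells with Aplnr were also deeper than cells with Gja5, and the part of depth in these counts was not tested.

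The E14.5 control was compared with the E13.5 control to see how the endothelium changed over a day in which the joint region forms. Of 5514 measured genes, 131 were at least 2-fold higher at E14.5 (2.38%) and 442 at least 2-fold lower (8.02%), beside a median log2 ratio of -0.13 over all genes. With a mean of CPM over cells these counts were 415 and 770. Because the E14.5 control had 34 endothelial cells, genes past 2-fold in all 3 libraries of E14.5 against the same E13.5 control were also counted, a choice made after values were seen. There were 19 higher (0.346%) and 47 lower (0.857%) of 5485, and the 3 ratios share the E13.5 library.

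Cavin2 was 1 of the 10 genes named for the clearest rise, and the others are given further below. Cavin2 (ENSMUSG00000045954, chromosome 1, 51289126 to 51302960), a coat protein of caveolae, measured 20.5, 184, 129 and 68.4 CPM, 8.97-fold (4.78 to 18.0) higher in the E14.5 control. It was low in the E13.5 control and highest in the E14.5 control, where 22 of 48 UMIs came from 1 cell and 26 were left without it. Cav1 (ENSMUSG00000007655, chromosome 6, 17306335 to 17341452), the main caveolin, measured 233, 627, 517 and 474 CPM, 2.69-fold (2.14 to 3.38) higher. All 3 libraries of E14.5 lay above the E13.5 control for both genes. They were 2 of 8 caveolae genes past 2-fold in the E14.5 control, with a list median of 0.46. In other cells the caveolae median was 1.33, above that of endothelial cells. Fabp4 measured 36.2, 138, 131 and 108 CPM, 3.80-fold (2.19 to 6.72) higher, with 16 of its 23 UMIs at E13.5 in 1 cell and 7 left without it. Together with Fabp5 it made 2 of 5 measured lipid and barrier genes past 2-fold. Igfbp7, a secreted IGF-binding protein of vessels, measured 106, 302, 454 and 547 CPM, 2.86-fold (2.04 to 4.03) higher in the E14.5 control and 5.18-fold (3.99 to 6.82) in DCKO. Outside endothelium it measured 40.3, 67.6, 50.6 and 26.1 CPM. Tm4sf1, a tetraspan protein of endothelial filopodia, measured 200.1, 444, 426 and 430.1 CPM, Tinagl1, a matricellular protein, 72.5, 157, 166 and 155 CPM and Ednrb, an endothelin receptor, 31.5, 91.8, 81.5 and 103 CPM. All 3 were lowest in the E13.5 control. Gpihbp1, at 1.70-fold (1.23 to 2.35), did not reach 2-fold in the E14.5 control.

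Among the genes lower at E14.5 were some arterial genes and some genes that fell in all cells. Of 10 measured arterial genes 4 were lower (Gja5, Gja4, Unc5b and Mecom), with a median of -0.29 in endothelial and -0.74 in other cells, and none was lower in all 3 libraries of E14.5. Gja4 measured 334, 119, 452 and 506 CPM, 2.82-fold (1.93 to 4.25) lower in the E14.5 control, and Gja5 50.4, 0, 108 and 64.1 CPM, at least 4.39-fold lower. Both mutants were above the E13.5 control, so that the E14.5 control stood apart from the other 3 libraries. Hmga2, a chromatin protein of immature cells, measured 200.1, 68.9, 93.8 and 82.6 CPM in endothelial cells and 464, 219.6, 179.7 and 198 CPM in other cells, 2.91-fold (1.77 to 5.06) lower in endothelial cells of the E14.5 control. Hist1h2ap, a histone gene, measured 409.7, 7.65, 30.8 and 19.9 CPM, and 539, 52.4, 49.1 and 36.1 CPM in other cells. Gm10076, a ribosomal protein pseudogene, measured 1355, 199, 309 and 255 CPM, and 1373, 242, 315 and 272 CPM in other cells. Erh measured 372, 88.0, 95.4 and 105 CPM, and 343, 107, 95.8 and 91.3 CPM in other cells. Hist1h2ap, Gm10076 and Erh were lower in all 3 libraries of E14.5 in endothelial and other cells alike, so the difference was not limited to endothelium. Medians of the cell cycle lists were -0.66 for S phase (4 of 12 genes lower) and -0.48 for G2M (1 of 16, Aurka), beside -0.33 and -0.34 in other cells and 8.02% of all genes lower. The share of cells with Mki67 or Top2a was not lower, at 36.5% in the E13.5 control and 38.2% in the E14.5 control. Mki67 alone was at 27.0 and 32.4% (thinned 10.7 and 14.6%) and Top2a alone at 33.3 and 23.5% (thinned 21.3 and 12.8%). Since these genes went opposite ways, a fall of the cell cycle was not read from the medians.

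Several of the strongest age ratios rest on single cells or on genes of neighbouring tissue. All 62 Ptcra UMIs of the E14.5 control lay in 1 cell, as did all 52 of Acta2, the smooth muscle actin, and 40 of 41 of Wdr34. Without those cells the counts are 0, 0 and 1. The cartilage genes Matn1, Mia, Cytl1 and Col11a1 were higher with the tissue, for example Matn1 at 22.1, 168, 112 and 47.0 CPM in endothelial and 258, 1325, 1082 and 1337 CPM in other cells, with 33 of 44 UMIs of the E14.5 control in 1 cell and 11 left without it. Itm2a and Dlk1, membrane proteins of the knee mesenchyme, measured 128, 474, 477 and 178 CPM and 154, 547, 529 and 127 CPM, beside 1101, 2541, 2074 and 1755 and 1021, 2799, 2381 and 2207 CPM in other cells. Of their UMIs in the E14.5 control, 78 of 124 and 54 of 143 were in 1 cell, and without the top cell of each library Itm2a was at 192 CPM against 109 CPM at E13.5 and Dlk1 at 359 CPM against 119.8 CPM. Lower at E14.5 were the limb mesenchyme factor Prrx1, at 74.1, 7.65, 13.8 and 27.1 CPM beside 289.8, 132, 106 and 103 CPM in other cells, and Nnat, a membrane proteolipid, at 107, 3.83, 50.8 and 25.6 CPM beside 508, 85.7, 91.2 and 88.1 CPM. Crabp1, a retinoic acid binding protein, measured 106, 3.83, 16.9 and 29.9 CPM, and its log2 ratio of -4.43 turned to 0.93 when 2 of the 7 genes sufficed for the rule. Clec1b, a platelet receptor, had 26 of its 34 UMIs at E13.5 in the cell with megakaryocyte genes, and Ccl21a had all 30 in the cell with lymphatic genes, which leaves 8 and 0. Hist1h4i had 25 of 48 UMIs in 1 cell, which leaves 23, or 37.2 CPM, at E13.5 against 7.65 CPM in the E14.5 control.

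The counts of the other lists stand beside 2.38% of all genes higher and 8.02% lower with age. Among venous genes Vwf was lower of 5, among lymphatic genes Ccl21a of 3 and among blood lineage genes Itga2b of 3. The Ccl21a and Itga2b values rest on the single cells named above. Vascular receptors had a median of 0.08 (Ednrb higher, Ptprb and Unc5b lower of 21), basement membrane genes of 0.15 (0 of 14 past 2-fold) and glycolysis genes of -0.01 (Eno1 lower of 12). The glycolysis value is so near 0 that TMM turns its sign to 0.02. Among transcription factors Mecom was lower of 18, with a median of -0.11 that turns to 0.14 with a mean of CPM over cells, and 0 of 8 Notch genes and 0 of 10 ligands were past 2-fold. Surface and junction proteins had a median of -0.25 with Vwf, Gja4 and Gja5 lower of 17, and tip cell genes one of 0.27 with Trp53i11 higher and Esm1 lower of 12. HIF targets had a median of 0.19 with Ankrd37 higher and Ero1l lower of 8, and ATF4 targets one of -0.69 with Phgdh and Atf3 lower of 6. The TGF-beta and BMP median was -0.63, with Id2 and Tgfb1i1 among the lower genes. Immediate-early genes had -0.77 in endothelial cells and 0.57 in other cells, with Jund, Atf3 and Ier2 lower of 15.

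**Figure D4:**
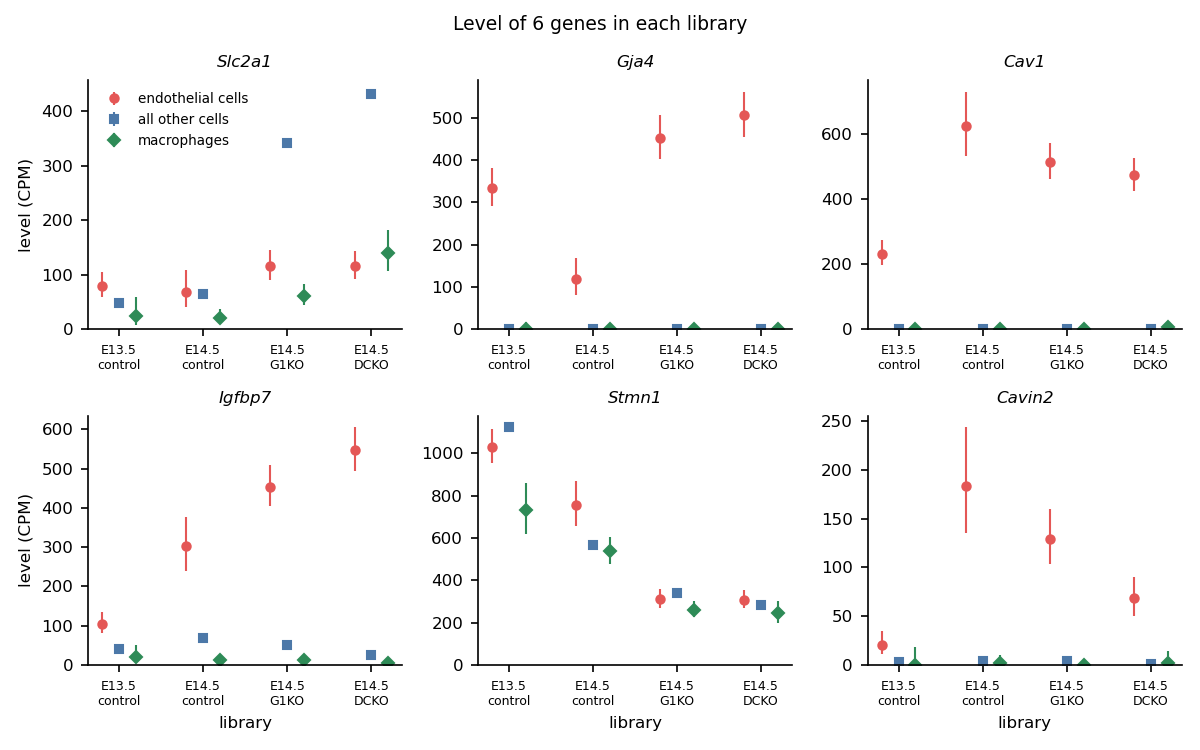
CPM of Slc2a1, Gja4, Cav1, Igfbp7, Stmn1 and Cavin2 in endothelial cells, all other cells and macrophages of each library, with exact Poisson 95% intervals for counting error. Slc2a1 in other cells goes from 47.9 and 64.6 in the controls to 341 and 431 in the mutants, while endothelial cells stay between 68.9 and 115.

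Mutant endothelium was compared with the E14.5 control to see how vessels outside the deleted lineage differ when neighbouring mesenchyme loses glucose transporters. Slc2a1 (ENSMUSG00000028645, chromosome 4, 119108711 to 119137983) itself measured 80.4, 68.9, 115 and 115 CPM in endothelial cells, 1.68-fold (0.991 to 2.98) higher in G1KO and 1.68-fold (0.996 to 2.97) in DCKO. In other cells it measured 47.9, 64.6, 341 and 431 CPM and in macrophages, also outside the Prx1Cre lineage, 25.2, 20.9, 61.8 and 141 CPM. Levels were thus far higher in other cells of the mutants than of the controls, with a smaller difference in endothelial cells, whose intervals reach below 1. With a mean of CPM over cells the endothelial log2 ratios were -0.33 in G1KO and 0.01 in DCKO, so a direction cannot be given. A UMI of Slc2a1 was found in 38.1, 41.2, 47.7 and 49.4% of endothelial cells and 24.4, 35.3, 63.2 and 71.5% of other cells, or 13.7, 18.1, 16.8 and 18.9% and 8.50, 11.5, 37.2 and 46.4% after thinning. Counts at the 3' end include transcripts with a deleted exon and do not check the deletion. What free RNA adds to these shares and levels was not tested. Slc2a3, the neuronal and blood cell transporter, had 2, 0, 0 and 0 UMIs.

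Of 5204 genes measured in both comparisons, 205 were at least 2-fold higher in both mutants (3.94%) and 46 at least 2-fold lower in both (0.884%). With a mean of CPM over cells these counts were 351 and 171. Both mutants share the E14.5 control library, so a chance high or low in its 34 cells enters both ratios. Among the higher genes were 6 of 12 measured arterial genes (Gja5, Gja4, Unc5b, Sema3g, Mecom and Jag1), and Cxcl12 was past 2-fold in G1KO. The arterial medians were 1.40 in G1KO and 1.14 in DCKO, beside 0.06 and 0.09 over all genes. Vwf measured 56.7, 7.65, 115 and 91.2 CPM, 15.1-fold (4.03 to 127) higher in G1KO and 11.9-fold (3.17 to 100.5) in DCKO, from 2 UMIs in the E14.5 control. The cell with the most Vwf held 29 of 75 UMIs in G1KO and 28 of 64 in DCKO. Gja4 was 3.81-fold (2.63 to 5.71) and 4.26-fold (2.95 to 6.37) higher, and Gja5 at least 9.38-fold and at least 5.58-fold against a floor of 3 counts. Mecom measured 91.4, 34.4, 145 and 145 CPM, 4.20-fold (2.12 to 9.47) and 4.22-fold (2.14 to 9.49) higher. For each of these genes the E14.5 control was the lowest of the 4 libraries and the E13.5 control lay between it and the mutants.

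The E14.5 control was also the lowest library for the other genes named as higher. Ptprb, the endothelial phosphatase that restrains Tek, measured 94.5, 42.1, 157 and 162 CPM, and Stmn2, a microtubule regulator known from neurons, 211, 38.3, 208 and 172 CPM. Serpinf1, an anti-angiogenic serpin, measured 70.9, 15.3, 128 and 81.2 CPM and Pcsk5, a proprotein convertase, 18.9, 0, 36.9 and 29.9 CPM. Hbs1l, a ribosome rescue factor, measured 45.7, 3.83, 38.5 and 45.6 CPM in endothelial and 46.8, 41.0, 38.1 and 40.9 CPM in other cells, with 1 UMI in endothelial cells of the E14.5 control. Fbln5, an elastic fibre protein, measured 7.88, 0, 83.1 and 34.2 CPM, with 18 of its 24 UMIs in DCKO from 1 cell and 6 left without it. Edn1, the vasoconstrictor endothelin, measured 18.9, 15.3, 63.1 and 66.9 CPM, 4.12-fold (1.49 to 15.8) and 4.37-fold (1.60 to 16.7) higher, and Jag1 6.30, 3.83, 40.0 and 29.9 CPM, with 12 of its 21 UMIs in DCKO in 1 cell and 9 left without it. These were the 2 of 12 ligands past 2-fold in both mutants, and both were low in both controls.

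The comparison was repeated without the cells with a Gja5 UMI, none of which was in the E14.5 control. Those cells were chosen on a gene of the difference and are rich in arterial genes, so a drop of arterial genes follows from the choice. Without the 32 Gja5 cells, a choice made after seeing the values, 0 of 8 measured arterial genes were at least 2-fold higher in both mutants, and over all genes 108 of 4724 were higher (2.29%) and 28 lower. Gja5, Sema3g and Jag1, past 2-fold in both mutants with all cells, were left with too few UMIs to count as measured in both comparisons. They had 0, 5 and 1 UMIs in the E14.5 control, 0, 6 and 7 in G1KO and 0, 19 and 3 in DCKO. The count over 8 genes therefore does not say whether these genes fell below 2-fold. Gja4 then measured 179, 119, 155 and 266 CPM, 1.31-fold (0.855 to 2.04) higher in G1KO and 2.24-fold (1.52 to 3.40) in DCKO. Vwf measured 6.88, 7.65, 7.47 and 9.96 CPM, near each other in all 4 libraries. Mecom then measured 58.5, 34.4, 57.9 and 71.4 CPM and Ptprb 65.4, 42.1, 110.1 and 99.6 CPM. Of the arterial genes, Gja4, Unc5b (2.31-fold, 1.24 to 4.71) and Mecom (2.07-fold, 0.996 to 4.83) were still past 2-fold in DCKO, but not in G1KO. Whether the 34 control cells missed such cells by sampling or the E14.5 control limbs had fewer was not tested.

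The genes named as lower in both mutants were chosen by the interval bound nearest 0, and they form no list of their own. Stmn1 (ENSMUSG00000028832, chromosome 4, 134468320 to 134473843), a tubulin-binding protein of dividing cells, measured 1030.4, 758, 311 and 309 CPM, 2.44-fold (1.99 to 2.98) lower in G1KO and 2.45-fold (2.01 to 2.99) in DCKO. In other cells it measured 1124, 564, 340.0 and 285 CPM and in macrophages 731, 539, 261 and 246 CPM. Both controls were above both mutants in all 3 groups of cells, so the difference was not limited to endothelium. Without Gja5 cells it measured 1079, 758, 319 and 322 CPM. Cenpa, the centromeric histone, measured 214, 241, 90.7 and 101 CPM and Cdca8, a chromosomal passenger protein, 142, 157, 70.8 and 74.1 CPM. In other cells Cenpa was at 200.2, 154, 113 and 108 CPM and Cdca8 at 139, 113, 85.6 and 91.5 CPM. Without the 10% of endothelial cells with the most UMIs the log2 ratio of Cdca8 was -0.17 in G1KO and -0.24 in DCKO, and without Gja5 cells it was 1.87-fold and 1.85-fold lower, short of 2-fold both ways. Tuba1b, an alpha tubulin, measured 542, 1067, 614 and 617 CPM, Gar1, a snoRNP protein, 59.9, 88.0, 33.8 and 31.3 CPM, Naf1, its assembly factor, 15.8, 53.6, 10.8 and 14.2 CPM and Lmnb2, a lamin, 15.8, 49.7, 10.8 and 12.8 CPM. Unlike Stmn1, these 4 were highest in the E14.5 control, and for Tuba1b, Naf1 and Lmnb2 the E13.5 control was closer to the mutants. Tuba1b was 1.74-fold (1.49 to 2.03) lower in G1KO and 1.73-fold (1.48 to 2.02) in DCKO, short of 2-fold. Ptcra, Wdr34 and Cytl1 complete the list of lower genes through the cells of the E14.5 control named above, with 25 of 38 Cytl1 UMIs in 1 cell and 13 left without it. As lists, 0 of 13 G2M genes measured in both were past 2-fold in both, while 4 of 14 were lower in G1KO (Ccnb1, Birc5, Cenpe and Ube2c) and 0 of 15 in DCKO, beside 128 of 5548 genes lower in G1KO over all. The G2M medians were -0.75 and -0.25, and the DCKO value turns to 0.02 with a mean of CPM over cells. Of 12 S phase genes Mcm2 was lower in both, with medians of -0.15 and -0.06.

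Glycolysis, HIF and ATF4 lists had no gene past 2-fold in both mutants. Of 13 glycolysis genes 0 were past 2-fold in both mutants, with medians of -0.19 and 0.25 in endothelial cells (DCKO -0.15 without 3 cells of DCKO and 1 of the control that carry megakaryocyte or mural genes) and 0.07 and 0.23 in other cells. HIF targets had 0 of 9 past 2-fold in both, while 5 of 13 measured were higher in G1KO (Bnip3, P4ha2, Ero1l, Mxi1 and Bhlhe40) and 0 of 10 in DCKO, with medians of 0.61 and 0.27. Over all genes 447 of 5548 were higher in G1KO. ATF4 targets had 0 of 5 past 2-fold in both, with medians of 0.44 and 0.15. Asns, asparagine synthetase and an ATF4 target, went in other cells from 39.9 CPM in the E14.5 control to 194 CPM in DCKO, while endothelial cells stayed between 15.3 and 26.8 CPM over all 4 libraries. For the TGF-beta and BMP genes the medians were 0.37 and 0.52, with Id2 higher in G1KO and 4 of 13 genes higher in DCKO (Tgfbr2, Smad7, Id1 and Tgfb1i1), beside 440 of 5689 over all genes. Basement membrane (14 genes), caveolae (7), tip cell (13) and immediate-early lists (15) had 0 past 2-fold in both mutants. Their medians in G1KO and DCKO were 0.15 and 0.30, -0.22 and -0.09, 0.12 and 0.36, and 0.66 and 0.31. With a mean of CPM over cells the G1KO values of the basement membrane and tip cell lists turn to -0.09 and -0.31. In these lists and glycolysis, genes past 2-fold in 1 mutant were Hk2, Fosb, Nr4a1 and Klf4 (higher in G1KO), Plaur and Trp53i11 (lower in G1KO), Esm1 (higher in DCKO) and Cavin2 (lower in DCKO).

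Among 21 vascular receptors Ptprb, S1pr1 and Unc5b were higher in both mutants, with medians of 0.23 and 0.36. The lists share genes, so their counts are not independent. Unc5b, Mecom, Gja4, Gja5 and Jag1 are also on the arterial list, Jag1 also on the ligand list, and Vwf is on both the venous and the junction list. Of 18 surface and junction proteins 5 were higher (Jam2, Cgnl1, Vwf, Gja4 and Gja5), with medians of 0.23, which turns to -0.02 with a mean of CPM over cells, and 0.66. Mecom was the transcription factor past 2-fold in both of 18 (Gata2 and Klf4 in G1KO, Lyl1 in DCKO), with medians of 0.31 and 0.33, the latter -0.11 with a mean of CPM over cells. Jag1 was the Notch gene past 2-fold in both of 10 (Jag2 in DCKO), with medians of 0.20, or -0.15 with a mean of CPM over cells, and 0.40. Vwf was the venous gene past 2-fold in both of 5, and none of 2 lymphatic (Mmrn1 in DCKO) and 3 blood lineage genes was. Of 7 lipid and barrier genes Aqp1 was higher and Cd36, a fatty acid receptor, lower in both, at 15.8, 15.3, 69.2 and 52.7 CPM and 0, 53.6, 21.5 and 12.8 CPM.

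Sex also differed between the libraries. Xist, the RNA of the inactive X chromosome, was found in 57.1, 0, 90.8 and 89.6% of endothelial cells, and any of 4 Y-linked genes in 22.2, 44.1, 0 and 0%. Cells of the E14.5 control carried Y-linked RNA without Xist, those of both mutants Xist without Y-linked RNA, and the E13.5 control both kinds. Sex and genotype therefore cannot be told apart at E14.5. The controls also differed in sex, so neither can sex and age between them.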

How the data were processed

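The authors deposited counts, UMIs per gene and cell, made with Cell Ranger 6.1.2, without normalization. Whole numbers and unequal totals were checked, and 99.6% of 32285 features were matched to GENCODE M21. UMIs were summed over endothelial cells, all other kept cells and macrophages of each library, with Python 3.11.15, numpy 2.4.6, scipy 1.17.1 and pandas 2.3.3. Ratios use CPM with a prior of 0.5 counts scaled to the sums, and a difference counts from 2-fold. Intervals and floors (3 counts) cover counting error and nothing else. Alternatives were edgeR 4.0.16 TMM factors in R 4.3.3, a mean of CPM over cells, other rules for cells and other filters. The methods were also run on simulated data, and no result of that is given here. Genes named were the 7 rule genes, list genes that are abundant or past 2-fold, the 15 with the highest lowest ratio to other cells, the 10 each way at E14.5 and in both mutants by the interval bound nearest 0, and Slc2a1 and Slc2a3. Further genes were chosen after their values were seen (the Gja5 comparison, genes past 2-fold in 3 libraries of E14.5, single cells). Cells and gene lists were chosen with earlier results of these data known. Some lists share genes, such as Col4a1, Col4a2 and Nid2 in the basement membrane and tip cell lists. A gene of the TGF-beta and BMP list is part of its medians but not reported here.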

Additional observations from a re-analysis of the deposited data

Results flagged for a closer look

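Barcodes removed by the filters also carried endothelial genes: 13, 9, 6 and 17 of them, in the order of the libraries above, had UMIs in at least 3 of the 7 genes. Most had more than 6000 genes (11, 4, 4 and 13) and the rest a high mitochondrial share (2, 5, 2 and 4). They stand outside each comparison.

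The 3 genes given here were past 2-fold higher in endothelial cells of both mutants, with ratios below 0 but short of 2-fold in all other cells. How many of the 205 genes higher in both mutants had such ratios in other cells is not given. These differences were not tested. Over all genes the median log2 ratio in other cells was -0.08 in G1KO and -0.13 in DCKO. The log2 ratio of Fbln5 to the E14.5 control was 2.86 in G1KO endothelial cells and -0.16 in G1KO other cells, with 1.57 and -0.47 in DCKO, where the endothelial values are lower bounds against 3 counts. Most Fbln5 UMIs of DCKO endothelial cells came from a single cell, as given above. For Cgnl1, a junction scaffold protein, the ratios were 1.97 and -0.29 in G1KO and 1.66 and -0.83 in DCKO. For Aqp1 they were 2.18 and -0.51 in G1KO and 1.78 and -0.98 in DCKO. None of the 3 was past 2-fold in both mutants without the cells with a Gja5 UMI, a choice made after seeing the data. Cgnl1 was then 1.22-fold (0.352 to 5.33) and 1.301-fold (0.394 to 5.54) higher, Aqp1 1.71-fold (0.536 to 7.13) and 1.41-fold (0.435 to 5.93), and Fbln5 had 10 UMIs in G1KO and 3 in DCKO against 0.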

How the results depend on the processing

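Alternatives that leave out cells with hemoglobin or Gja5, and all alternatives of the Gja5 comparison, were chosen after seeing the data. Of 2710 values of 238 gene ratios under an alternative, 2559 moved little, 147 moved and 4 reversed, which means a change of sign of a ratio past 2-fold. Changes of sign of any size numbered 10. Of 1761 values of 147 list medians, 1463 moved by under 0.25, 297 moved more and 1 reversed, while 103 changed sign at any size. The causes were not tested, except that filters on low counts change how many genes are measured.

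With 2 of the 7 genes as the rule, shares of endothelial cells were 0.707, 0.548, 0.932 and 0.885%, 1041 genes were lower than in other cells in all 4 libraries, 46 were higher in all 3 libraries of E14.5, and the age log2 ratios of Crabp1 and Cyth3 reversed to 0.93 and -0.30. With a mean of CPM over cells, 415 genes were higher and 770 lower at E14.5, 45 and 97 in all 3 libraries of E14.5, 351 and 171 in both mutants, and Entpd1 and Dcaf10 reversed with age to -0.31 and 0.79. At 50 UMIs the counts were 37 and 97 for age, 9 and 15 for the 3 libraries, 35 and 8 for both mutants, and 320 and 336 for Gja5 against Aplnr cells, and the lymphatic median against other cells in G1KO reversed to 0.0123. Without a filter they were 5848 lower than other cells, 1554 and 3610 for age, 390 and 910 for the 3 libraries, 2058 and 764 for both mutants, and 2801 and 4262 for Gja5 against Aplnr cells. With 1000 genes and 5% mitochondrial UMIs as limits, 29 genes were lower in both mutants. Without Gja5 cells the mutant counts were 108 and 28, and without the DCKO library 541 genes were higher in Gja5 cells.

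Depth sets the limits. Each condition has 1 library, and the E14.5 control has 34 endothelial cells, so a gene at 0 there allows a UMI in up to 8.82% of cells (3 of 34) and does not limit the cells that express it. With sums of 0 set to the floor of 3 counts, also chosen after seeing the data, 557 of the 2119 genes lower than in other cells were still past 2-fold. Shares of cells with a gene moved in 35 of 96 values, under thinning. Embryo number, sex and genotype cannot be told apart, nor can sex and age between the controls, and no ratio has an error beyond counting.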
